A study of Mus musculus with 23 samples.

Results

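A set of 10 genes of amino acid stress and serine synthesis was followed in tumour cells and blood vessel endothelial cells sorted from mouse breast tumours: Phgdh, Psat1, Asns, Atf5, Trib3, Chac1, Sesn2, Slc7a5, Slc3a2 and Slc7a11. They were chosen by name, with earlier results of these data known, and all 10 were among the 19938 genes measured, each through 1 array feature. Py2T, a murine breast cancer cell line, formed tumours in the mammary fat pad of female FVB/N mice, which were left untreated or given nintedanib at 50 mg/kg, a drug that blocks the receptor kinases of VEGF, PDGF and FGF. The tumour cell arrays came from untreated tumours (n = 3), tumours treated for 7 days (n = 4) and tumours treated for 21 days (n = 5), and the endothelial arrays came from the same 3 conditions (n = 3, 3 and 5). Untreated tumours had the size of the tumours treated for 21 days, so the untreated cells are not a control of the same treatment time for the 7-day group. All tumours came from 1 cell line in 1 mouse strain; neither mouse ages nor any pooling of animals is stated in the labels. The study's title concerns how tumours resist anti-angiogenic therapy through metabolic symbiosis.

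When amino acids run short, uncharged transfer RNA activates the kinase GCN2, which phosphorylates eIF2alpha, slows general translation and lets the transcription factor ATF4 be made. ATF4, paired with a C/EBP protein, turns on genes for amino acid synthesis, import and transfer RNA charging, and stress of the endoplasmic reticulum (ER) or low haem reaches the same step through other kinases. De novo serine synthesis branches from glycolysis at PHGDH, goes on through PSAT1 and PSPH, and supplies glycine and one-carbon units for nucleotides; PHGDH is known as a gene amplified in some breast cancers.

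The binding site of ATF4 with C/EBP has the core TGATGNAA. It was searched on both strands of the RefSeq promoter windows of GRCm38.p6, each 300 bases long (250 before and 50 after the annotated start), and 3.97% of all 32851 windows held it. Of the 9 genes with a window, 4 held it (Asns, Chac1, Slc7a11 and Trib3), and 3 are shown because their matches lie upstream of the start. Capitals mark the matches.
Asns, chr6:7693210-7693253, minus strand: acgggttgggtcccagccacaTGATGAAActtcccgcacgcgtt
Chac1, chr2:119351028-119351077, plus strand: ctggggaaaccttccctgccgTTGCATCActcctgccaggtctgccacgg
Slc7a11, chr3:50443632-50443700, minus strand: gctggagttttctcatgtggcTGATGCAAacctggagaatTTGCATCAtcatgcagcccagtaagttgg
The Asns match began 23 bases before the start, the Chac1 match 193 bases before it, and the Slc7a11 window held a pair of matches, in opposite orientations, at 66 and 47 bases. The windows of Psat1, Phgdh, Atf5, Slc3a2 and Sesn2 did not hold these letters.

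The cell labels were set against marker genes. The mean log2 signal of 12 endothelial markers was 9.67 to 10.33 on the endothelial arrays and 3.85 to 4.13 on the tumour cell arrays. The keratins Krt8 and Krt18, which mark epithelial cells, averaged 6.89 to 10.57 on the 11 endothelial arrays, below every tumour cell array but far apart from each other. They were picked from a list of 11 epithelial markers that was split between the cell types. In endothelial against tumour cells 3, 4 and 4 of the 11 were lower in the 3 conditions (Krt8, Krt18 and Krt14, joined by Cdh1 at 7 and 21 days) and Esrp1 was higher at 21 days, while 5, 3 and 7 had positive differences (medians -0.03, -0.32 and 0.13). Untreated endothelial replicate 1 and 21-day endothelial replicates 3 and 4 had the 3 highest endothelial keratin means (9.55, 9.99 and 10.57) and also the 3 highest means of 15 macrophage markers (7.38, 7.30 and 6.71, against 4.49 to 6.03 on the other endothelial arrays and 4.13 to 5.03 on the tumour cell arrays). In sorted bulk samples, fewer cells of a type and less RNA per cell cannot be told apart. Correlations over all genes between arrays of 1 group were 0.98 to 0.99 in tumour cells and 0.93 to 0.98 in endothelial cells. The labels call the arrays biological replicates.

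Among the 10 genes, the 2 cell types differed most in the serine synthesis enzymes: Phgdh and Psat1 were 2.71-fold to 4.97-fold lower in endothelial than in tumour cells in all 3 conditions. Atf5 and Sesn2 were lower by smaller amounts, also in all 3 conditions, though every untreated call among these genes was lost under at least 1 alternative. None of the 10 genes changed with nintedanib in either cell type at an adjusted p under 0.05 (limma, Benjamini-Hochberg over all genes, termed called below). Few genes of any kind were called: 0.507% of all genes after 7 days and 0.0903% after 21 days in tumour cells, and 0.0% in endothelial cells. Slc7a5, the light chain of the large neutral amino acid transporter, had the smallest unadjusted p of the 10 genes in 3 of the 4 comparisons of treated with untreated cells.

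**Figure D1:**
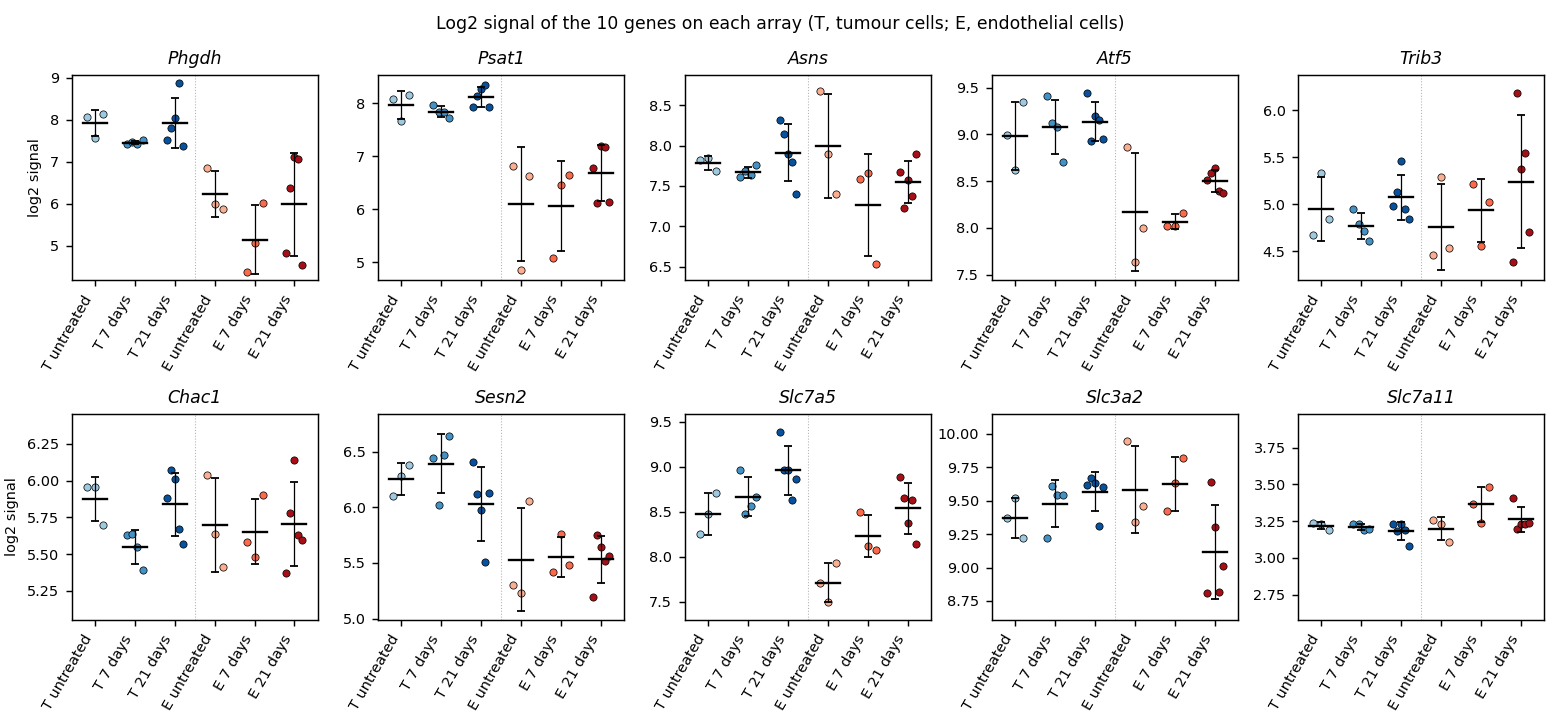
Log2 signal (y axis) of each of the 10 genes on each of the 23 arrays, by cell type (T, tumour cells; E, endothelial cells) and treatment (x axis); points are arrays, bars the group mean and SD. Phgdh and Psat1 sit lower in every endothelial group (means 5.15 to 6.68) than in every tumour cell group (7.46 to 8.12), while Slc7a11 lies between 3.08 and 3.48 throughout.

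Phgdh (array transcript cluster 10500529), the first enzyme of serine synthesis, had the widest range of the 10 genes, 4.51 log2 units over the 23 arrays. In tumour cells it read 8.07, 7.56 and 8.14 in the untreated group, 7.42, 7.48, 7.43 and 7.51 after 7 days, and 7.53, 7.81, 8.05, 8.88 and 7.38 after 21 days. The 4 arrays of the 7-day group all lay below the 3 untreated arrays, and the 21-day group spanned both. The difference after 7 days was -0.46 ± 0.28 (SE; 95% interval -1.08 to 0.16; adjusted p = 0.62, limma), which turned to 0.12 ± 0.47 with the mean of the isolation stress markers described below as a covariate, and after 21 days it was 0.01 ± 0.27 (-0.58 to 0.60; adjusted p = 0.996, limma). The isolation stress mean does not overlap between untreated and 7-day tumour cells. Its part in the 7-day value therefore cannot be told apart from the treatment.

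In endothelial cells Phgdh read 6.86, 5.99 and 5.87 untreated, 4.38, 5.06 and 6.01 after 7 days, and 4.83, 6.38, 7.11, 7.06 and 4.55 after 21 days. The 3 endothelial groups overlapped, and the 21-day arrays fell into a high set of 3 and a low set of 2. The differences from untreated cells were -1.09 ± 0.72 (95% interval -2.70 to 0.51) after 7 days and -0.26 ± 0.65 (-1.69 to 1.18) after 21 days. With the isolation stress mean as a covariate they were -3.43 ± 1.05 and -2.96 ± 1.14, and with the macrophage marker mean -0.10 ± 0.70 and -0.22 ± 0.52, none of them called. The isolation stress mean does not overlap between treated and untreated endothelial arrays, so its part cannot be told apart from the treatment. The intervals without a covariate hold both a fall of more than 1 log2 unit and no change.

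Psat1 (cluster 10466410), the aminotransferase of the next step, read 8.07, 7.67 and 8.16 in untreated tumour cells, 7.97, 7.83, 7.83 and 7.73 after 7 days, and 7.93, 8.14, 8.26, 8.34 and 7.92 after 21 days. The groups overlapped, with differences from untreated cells of -0.13 ± 0.14 and 0.15 ± 0.13. Between 7 and 21 days the difference was 0.28 ± 0.12 (adjusted p = 0.368, limma). In endothelial cells Psat1 read 6.81, 4.86 and 6.62 untreated, 5.09, 6.46 and 6.65 after 7 days, and 6.77, 6.12, 7.20, 7.18 and 6.14 after 21 days. One array of the untreated group and 1 of the 7-day group lay more than 1 log2 unit below the rest of their groups, and the groups overlapped.

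Every endothelial array was below every tumour cell array for both enzymes, and these were the largest cell type differences among the 10 genes. Untreated endothelial cells were lower by -1.68 ± 0.57 for Phgdh (95% interval -2.88 to -0.48; adjusted p = 0.0465, limma) and by -1.87 ± 0.43 for Psat1 (-2.76 to -0.98; adjusted p = 0.00342, limma). The untreated Phgdh call was lost without any 1 untreated tumour replicate and without untreated endothelial replicate 2 or 3 (adjusted p = 0.0608 to 0.135, limma), and that of Psat1 when only the groups compared were fitted (adjusted p = 0.0638). At 7 days the differences were -2.31 ± 0.54 (adjusted p = 0.00243, limma) and -1.77 ± 0.40 (adjusted p = 0.00193), and at 21 days -1.94 ± 0.44 (adjusted p = 0.00222) and -1.44 ± 0.33 (adjusted p = 0.0023). The step between the lowest tumour cell mean and the highest endothelial mean was 1.22 for Phgdh and 1.16 for Psat1, more than the SD of either neighbouring group. The other neighbours in the order of the 6 group means lay closer than the larger of their SDs, except that the 7-day tumour cells lay 0.46 below the untreated tumour cells for Phgdh.

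Within the endothelial groups Phgdh was highest where the keratins Krt8 and Krt18 were high. These were picked from 11 epithelial markers that were split between the cell types, and the cause of the pattern was not tested. Among the 21-day endothelial arrays the keratin means were 6.89, 9.32, 9.99, 10.57 and 8.11 for replicates 1 to 5, and the 3 arrays with the highest keratins were the 3 with the highest Phgdh. The same held for the untreated group, where replicate 1 had the highest keratin mean (9.55) and the highest Phgdh (6.86), and in the 7-day group, where replicate 3 was highest in both (9.06 and 6.01). Psat1 followed the keratins less closely: 21-day replicate 1 had the lowest keratin mean and a Psat1 value of 6.77, in the middle of its group. Leaving out the 3 endothelial arrays high in macrophage markers and keratins, a choice made after seeing the data, gave cell type differences for Phgdh of -1.99, -2.31 and -2.67 in untreated, 7-day and 21-day cells (adjusted p = 0.00925, 0.000467 and 7.27e-05, limma). For Psat1 they were -2.23, -1.77 and -1.78 (adjusted p = 0.00118, 0.00119 and 0.00082, limma).

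**Figure D2:**
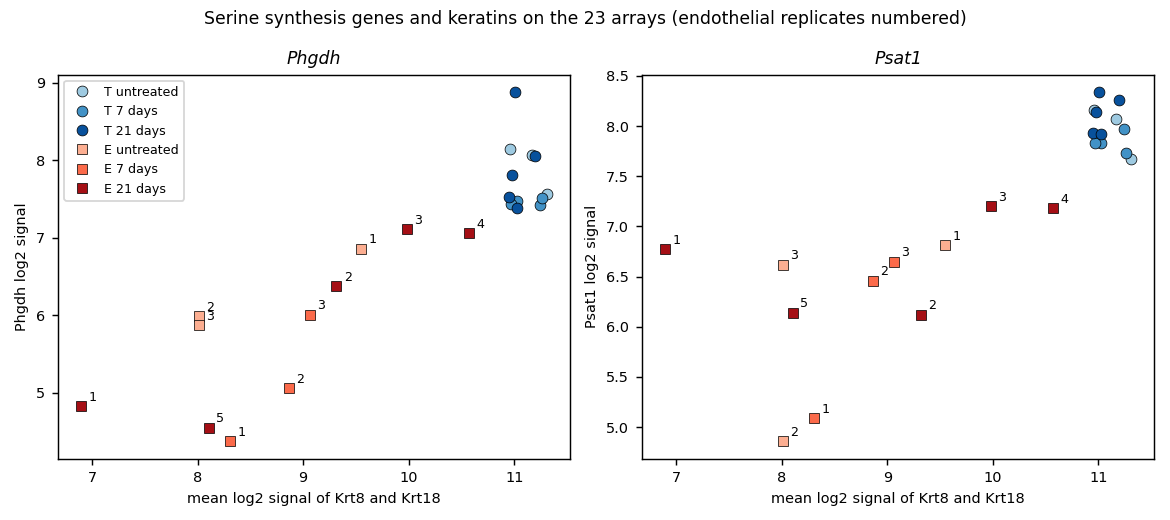
Phgdh (left) and Psat1 (right) log2 signal (y axes) against the mean log2 signal of the keratins Krt8 and Krt18 (x axis); each point is 1 of the 23 arrays, and endothelial arrays (squares) carry their replicate number. The endothelial arrays spread from 6.89 to 10.57 in keratins, and those with the highest keratins have Phgdh values of 6.38 to 7.11, nearest to the tumour cells.

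Asns (cluster 10543067) encodes asparagine synthetase, a standard readout of the amino acid response. It read 7.82, 7.84 and 7.68 in untreated tumour cells, 7.61, 7.68, 7.63 and 7.76 after 7 days, and 8.32, 8.14, 7.89, 7.80 and 7.40 after 21 days. The 21-day arrays ran from the lowest to the highest tumour cell value of this gene, with a mean of 7.91 ± 0.35 (SD, n = 5) against 7.78 ± 0.09 (n = 3) in untreated cells. In endothelial cells it read 8.68, 7.90 and 7.40 untreated, 7.59, 7.66 and 6.53 after 7 days, and 7.67, 7.23, 7.57, 7.38 and 7.89 after 21 days. The differences from untreated endothelial cells were -0.73 ± 0.36 (95% interval -1.53 to 0.07) and -0.45 ± 0.32 (-1.17 to 0.27), and both became smaller, -0.38 and -0.05, without the 3 arrays named above. The endothelial minus tumour cell differences of Asns were 0.21 ± 0.29, -0.41 ± 0.27 and -0.36 ± 0.23, none of them called.

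Atf5 (cluster 10562905), a transcription factor that acts beside ATF4, read 8.99, 8.62 and 9.35 in untreated tumour cells, 9.41, 9.12, 9.08 and 8.71 after 7 days, and 9.44, 8.93, 9.20, 9.15 and 8.95 after 21 days. The 3 groups overlapped. In endothelial cells it read 8.87, 7.64 and 8.00 untreated, 8.02, 8.02 and 8.16 after 7 days, and 8.51, 8.59, 8.64, 8.39 and 8.37 after 21 days. All 5 endothelial arrays at 21 days lay above all 3 at 7 days, a difference of 0.43 ± 0.23 that was not called (adjusted p = 0.577, limma), and 2.0% of all genes were separated in that direction. Endothelial cells were lower than tumour cells by -0.82 ± 0.24 untreated (adjusted p = 0.019, limma, with overlapping arrays), -1.01 ± 0.22 at 7 days (adjusted p = 0.0016) and -0.63 ± 0.18 at 21 days (adjusted p = 0.0127). The untreated Atf5 call was lost without untreated tumour replicate 1 or 3 or untreated endothelial replicate 2 or 3 (adjusted p = 0.0546 to 0.138, limma), whereas the 7-day and 21-day calls of Phgdh, Psat1 and Atf5 were kept under every alternative run.

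Trib3 (cluster 10488608) encodes a pseudokinase that ATF4 and CHOP induce and that feeds back on both. Its tumour cell values ran from 4.61 to 5.46 and its endothelial values from 4.39 to 6.18. The spread was widest in 21-day endothelial cells, with 4.39, 6.18, 5.38, 5.55 and 4.70 (SD 0.71), where the group held the lowest and the highest endothelial values of the gene. No difference of Trib3 was called, and the difference after 21 days in endothelial cells was 0.48 ± 0.38 (95% interval -0.37 to 1.32).

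Chac1 (cluster 10474972) encodes an enzyme that cleaves glutathione. It read 5.96, 5.96 and 5.70 in untreated tumour cells, 5.63, 5.64, 5.55 and 5.39 after 7 days, and 5.88, 6.07, 6.01, 5.67 and 5.57 after 21 days. Like Phgdh, it was lower on all 4 of the 7-day arrays than on any untreated array, while the 21-day values again spanned the range. The difference after 7 days was -0.32 ± 0.13 (95% interval -0.60 to -0.05; unadjusted p = 0.0258, adjusted p = 0.352, limma), and between 7 and 21 days it was 0.29 ± 0.11 (adjusted p = 0.306, limma). Of the 10 genes, 2 were separated between 7-day and untreated tumour cells, both lower, where 4.9% of all genes were separated in that direction. In endothelial cells Chac1 ran from 5.37 to 6.14, with differences from untreated cells of -0.04 ± 0.22 and 0.01 ± 0.20. It was not called between the cell types, with differences of -0.18 ± 0.18, 0.10 ± 0.17 and -0.14 ± 0.14.

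Sesn2 (cluster 10516932) encodes sestrin 2, a leucine sensor that holds back mTORC1 when leucine is low. It read 6.10, 6.28 and 6.38 in untreated tumour cells, 6.44, 6.02, 6.47 and 6.64 after 7 days, and 6.41, 6.12, 5.98, 5.51 and 6.13 after 21 days. The tumour cell groups overlapped, and the difference between 21 and 7 days was -0.36 ± 0.17 (adjusted p = 0.428, limma). In endothelial cells it read 5.30, 5.23 and 6.06 untreated, 5.42, 5.76 and 5.48 after 7 days, and 5.19, 5.75, 5.64, 5.52 and 5.56 after 21 days, with group means of 5.53 to 5.56. Endothelial cells were lower than tumour cells by -0.72 ± 0.22 untreated (adjusted p = 0.0275, limma), -0.84 ± 0.21 at 7 days (adjusted p = 0.004) and -0.50 ± 0.17 at 21 days (adjusted p = 0.0328, with overlapping arrays). Without the 3 endothelial arrays named above, the untreated and 21-day calls were lost (-0.60, adjusted p = 0.133, and -0.53, adjusted p = 0.0588, limma). The 21-day call was also lost without 21-day tumour replicate 1, 2 or 5.

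Slc7a5 (cluster 10582275) encodes LAT1, which imports leucine and other large neutral amino acids. In endothelial cells it read 7.71, 7.50 and 7.93 untreated, 8.50, 8.12 and 8.07 after 7 days, and 8.89, 8.65, 8.38, 8.63 and 8.14 after 21 days. Every treated endothelial array was above every untreated one. The difference was 0.51 ± 0.20 after 7 days (95% interval 0.06 to 0.97; unadjusted p = 0.0298, adjusted p = 0.595, limma) and 0.82 ± 0.18 after 21 days (0.42 to 1.23; unadjusted p = 0.00106, adjusted p = 0.659, limma). Neither was called, and Slc7a5 was the only one of the 10 genes separated from untreated endothelial cells at either time, where 9.87% of all genes were separated and higher after 7 days and 2.14% after 21 days.

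In tumour cells Slc7a5 read 8.25, 8.47 and 8.71 untreated, 8.97, 8.48, 8.56 and 8.67 after 7 days, and 9.39, 8.97, 8.96, 8.63 and 8.86 after 21 days. Of the 5 arrays at 21 days, 4 lay above the highest untreated array. The difference was 0.49 ± 0.16 (95% interval 0.13 to 0.85; unadjusted p = 0.0119, adjusted p = 0.348, limma). The response after 21 days was 0.33 ± 0.25 larger in endothelial than in tumour cells, a difference whose interval (-0.19 to 0.86) includes 0. Endothelial cells had less Slc7a5 than tumour cells when untreated (-0.76 ± 0.20, adjusted p = 0.00996, limma) and after 21 days (-0.43 ± 0.15, adjusted p = 0.0409, with overlapping arrays), while the 7-day difference of -0.44 ± 0.19 had an adjusted p of 0.0655. The 21-day call was lost without the 3 endothelial arrays named above (-0.41, adjusted p = 0.108, limma), and also without 21-day tumour replicate 1, 2 or 5. The untreated call was 1 of 5 among the 10 genes, a count that fell to 1 without untreated tumour replicate 3 or untreated endothelial replicate 2.

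The mean of 11 isolation stress markers, immediate early genes such as Fos and Jun that cell dissociation is known to raise, moved with the treatment. It was 8.25 to 8.68 in untreated endothelial cells, 9.19 to 9.44 after 7 days and 9.08 to 9.83 after 21 days, and 9.04 to 9.48, 9.93 to 10.29 and 9.33 to 10.12 in the tumour cell groups. With that mean as a covariate, the endothelial Slc7a5 differences were 0.21 ± 0.38 and 0.47 ± 0.41. In endothelial cells this mean does not overlap between treated and untreated arrays, so its part in the Slc7a5 values cannot be told apart from the treatment.

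Slc3a2 (cluster 10465772) encodes 4F2hc, the heavy chain that LAT1 and xCT both need. In tumour cells it ran from 9.22 to 9.67 and was not called between any groups. In endothelial cells it read 9.95, 9.34 and 9.46 untreated, 9.42, 9.63 and 9.82 after 7 days, and 8.81, 9.64, 9.30, 8.82 and 9.01 after 21 days. Of the 5 arrays at 21 days, 4 lay below every untreated and every 7-day endothelial array. The difference from 7 days was -0.51 ± 0.22 (unadjusted p = 0.041, adjusted p = 0.52, limma), and that from untreated cells was -0.46 ± 0.22 (95% interval -0.95 to 0.02). Endothelial cells were lower than tumour cells at 21 days by -0.45 ± 0.15 (adjusted p = 0.0286, limma, with overlapping arrays), a call lost without the 3 endothelial arrays named above (-0.41, adjusted p = 0.0528, limma). That call was also lost without 21-day tumour replicate 1, 2 or 5. The 21-day response of Slc3a2 was -0.66 ± 0.25 lower in endothelial than in tumour cells (95% interval -1.18 to -0.15; unadjusted p = 0.0141, adjusted p = 0.744, limma). In 21-day endothelial cells the LAT1 light chain and its heavy chain thus had differences of opposite sign from untreated cells, and neither was called.

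Slc7a11 (cluster 10498024) encodes xCT, the cystine importer. It stayed within 0.41 log2 units on all 23 arrays, between 3.08 and 3.48, near the low end of the table (1.93 to 14.06). The deposited table has no detection call, so whether Slc7a11 was measured above background is not known, and its lack of differences says little about the transcript. The 3 endothelial arrays at 7 days (3.37, 3.24 and 3.48) lay above the 4 tumour cell arrays at 7 days (3.19 to 3.23), a difference of 0.15 ± 0.07 that was not called.

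**Figure D3:**
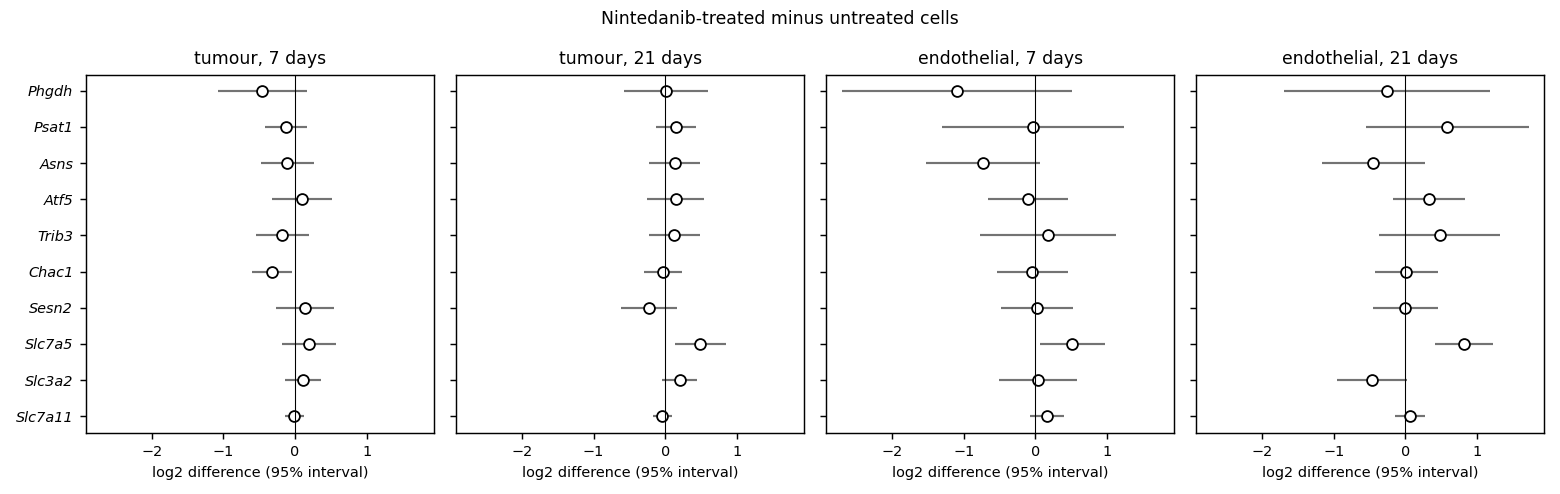
Log2 difference (x axis) between nintedanib-treated and untreated cells for the 10 genes (y axis), in tumour cells and endothelial cells after 7 and 21 days; points are limma estimates, lines 95% intervals and open points genes that were not called. All points are open, and Slc7a5 has an interval above 0 in 3 of the 4 panels.

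Across the 10 genes, 0 were called after 7 days in tumour cells (0.507% of all genes were), 0 after 21 days (0.0903%) and 0 between 7 and 21 days (1.22%). At an unadjusted p under 0.05, limma gave 1, 1 and 2 of the 10 genes (11%, 10.1% and 11.9% of all genes). In endothelial cells limma called 0 of the 10 and 0.0% of all genes in each of the 3 comparisons, and 1 of the 10 had an unadjusted p under 0.05 in each (8.17%, 4.18% and 9.4% of all genes; 1629, 833 and 1875 genes). The treatment effects did not differ by a called amount between the cell types for any of the 10 genes, where 0.0953% of all genes were called for the 7-day effect and 0.0% for the 21-day effect. The comparisons with untreated cells share those untreated arrays, so their values are not independent. The tumour cell medians of the 10 differences were -0.06 after 7 days and 0.13 after 21 days, and 0.26 between the times, against -0.01 over all genes in the first 2. Of the 10 genes, 8 had higher means at 21 than at 7 days in tumour cells, with Sesn2 and Slc7a11 the others.

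Between the cell types the counts were larger. In untreated cells 5 of the 10 genes were lower in endothelial cells and 0 higher, where 10.2% of all genes were lower and 18.3% called in either direction. At 7 days 4 were lower (17.0% of all genes lower, 40.0% either way), and at 21 days 6 were lower (16.3% lower, 32.0% either way). The groups were separate for 4, 5 and 3 of the 10 genes, against 35.7%, 44.3% and 23.5% of all genes. The median of the 10 differences was -0.45, -0.42 and -0.44, against 0.03, 0.11 and 0.06 over all genes. Asns, Chac1, Trib3 and Slc7a11 were called in none of the 3 comparisons. The untreated count rested on single arrays: it was 1 without untreated tumour replicate 3 or untreated endothelial replicate 2, and 3 without untreated tumour replicate 1 or 2 or untreated endothelial replicate 3. It was 2 when only the 6 arrays compared were fitted. The 21-day count of 6 was 3 without tumour replicate 1, 2 or 5 of that group, and 3 without the 3 endothelial arrays high in macrophage markers. The calls left in each case were those of Phgdh, Psat1 and Atf5.

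**Figure D4:**
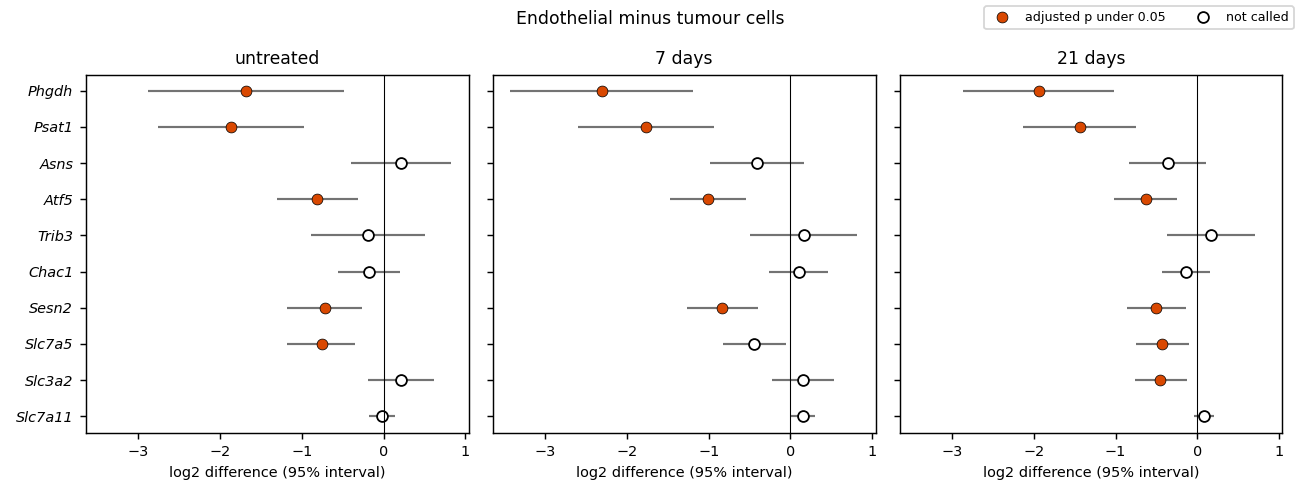
Log2 difference (x axis) between endothelial and tumour cells for the 10 genes (y axis) in untreated, 7-day and 21-day cells; points are limma estimates, lines 95% intervals, and filled points have an adjusted p under 0.05. Phgdh and Psat1 lie farthest to the left in all 3 panels (-1.44 to -2.31), and filled points lie below 0.

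ATF4 itself, given here because it drives these genes and not for the size of its change, differed from untreated cells by 0.01 ± 0.07 and 0.04 ± 0.07 in tumour cells and by -0.25 ± 0.27 and 0.08 ± 0.24 in endothelial cells. Its output is set largely by translation, which these arrays do not measure. Atf4 was lower in endothelial than in tumour cells at 7 days (-0.69 ± 0.18, adjusted p = 0.00602, limma), with -0.44 and -0.40 in the other conditions (adjusted p = 0.138 and 0.0507, limma).

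In tumour cells, 0 of the 14 measured eIF2alpha kinases, phosphatase subunits and ATF4 partners changed with treatment at either time. Nupr1, a stress-induced chromatin protein, had a difference of 0.62 ± 0.14 after 7 days (adjusted p = 0.0851, limma), and Atf3, also one of the isolation stress markers, had 0.84 ± 0.35 after 21 days. Of 24 other ATF4 targets, among them transfer RNA synthetases, 0 were called at either time. Positive differences were found for 22 of them at each time, with a median of 0.09 against -0.01 over all genes. The ER chaperone list held the only call of the 7 pathway lists against untreated tumour cells: Herpud1, which takes part in ER-associated degradation, rose by 1.06 ± 0.19 after 7 days (adjusted p = 0.0392, limma), as 1 of 14 genes. All 14 had positive differences at 7 days (median 0.29) and 12 at 21 days (median 0.21). The isolation stress markers also had positive differences on 11 of 11 genes at both times, with 3 called after 7 days (Dusp1, Hspa1a and Zfp36). Their mean did not overlap between untreated and 7-day tumour cells. Their part in the 7-day ER chaperone values therefore cannot be told apart from the treatment. Values of the ER chaperones with that mean as a covariate are not given here.

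The 14 other serine, glycine and one-carbon enzymes had 0 calls in tumour cells, with 4 positive differences after 7 days and 11 after 21 days (medians -0.06 and 0.03). The 19 other amino acid transporters also had 0 calls against untreated tumour cells. Slc7a7, the y+LAT1 light chain, fell by 0.88 on the log2 scale between 7 and 21 days (SE 0.18, adjusted p = 0.037, limma), after a difference of 0.89 ± 0.20 at 7 days (adjusted p = 0.088, limma). The 13 glutathione and antioxidant genes and the 16 sestrin and mTORC1 genes had 0 calls at both times.

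In endothelial cells limma called 0 genes of every list with treatment, and 0.0% of all genes. The largest differences among the genes with the smallest p were those of Atf3, 1.50 ± 0.48 after 7 days and 1.99 ± 0.43 after 21 days (adjusted p = 0.549 and 0.651, limma). Atf3 is also an isolation stress marker, and the mean of those markers does not overlap between treated and untreated endothelial arrays. The part of isolation stress in its values therefore cannot be told apart from the treatment. Mthfd2, a mitochondrial folate enzyme that ATF4 induces, had 0.67 ± 0.20 and 0.52 ± 0.18 (adjusted p = 0.549 and 1.0, limma). Of the 24 other ATF4 targets, 11 had positive differences after 7 days and 17 after 21 days.

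**Figure D5:**
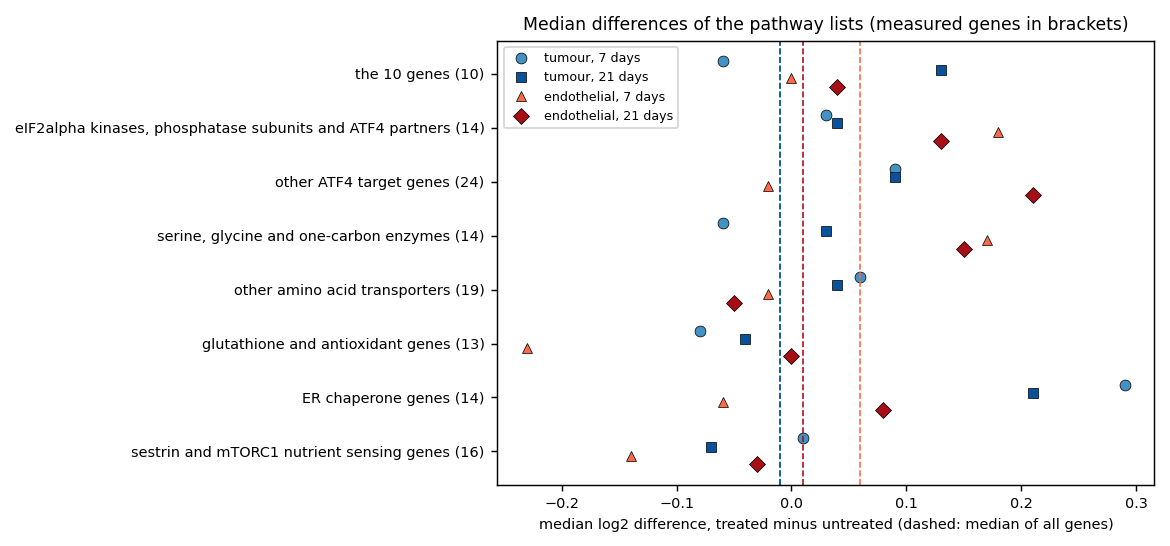
Median log2 difference between treated and untreated cells (x axis) of the 10 genes and of the 7 other lists (y axis, number of measured genes in brackets), with a symbol for each cell type and time; dashed lines mark the median of all genes. The ER chaperone list has the highest tumour cell medians, 0.29 after 7 days and 0.21 after 21 days, and the medians of the 10 genes lie between -0.06 and 0.13.

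Between the cell types, 5 of the 14 other serine, glycine and one-carbon genes were lower in untreated endothelial cells and 0 higher (10.2% of all genes were lower), and 13 had negative differences (median -0.70, against 0.03 over all genes). They were Psph, the last enzyme of serine synthesis (-0.97 ± 0.33), Shmt2, the mitochondrial enzyme that makes glycine from serine (-0.79 ± 0.21), and the mitochondrial folate enzymes Mthfd2 (-0.74 ± 0.22), Mthfd2l (-1.53 ± 0.32) and Mthfd1l (-1.23 ± 0.25). At 7 days 6 were lower and 1 higher (17.0% of all genes lower), with 4 positive differences and a median of -0.38. At 21 days 8 were lower and 0 higher (16.3% of all genes lower), with a median of -0.55.

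Among all genes, 18.3%, 40.0% and 32.0% were called between the cell types in untreated, 7-day and 21-day cells, and the list counts that follow stand beside those shares. In untreated endothelial cells Nupr1 (-3.17 ± 0.48), Ddit3, which encodes CHOP (-1.73 ± 0.39), Cebpb (-1.07 ± 0.25) and Jdp2 (-0.73 ± 0.17) were lower, and Ppp1r15b, a phosphatase subunit that acts on eIF2alpha, was higher (0.82 ± 0.25), as 5 of 14 genes (adjusted p of 6.48e-05 to 0.0279, limma). At 7 days 5 of these 14 genes were lower and 1 higher, and at 21 days 5 were lower: Nupr1 (-2.23), Ddit3 (-1.48), the kinase gene Eif2ak2 (-0.78), Jdp2 (-0.60) and Cebpb (-0.55). Of the 24 other ATF4 targets 3 were higher and 7 lower in untreated cells, 2 and 10 at 7 days, and 3 and 6 at 21 days. Of the 19 other transporters 3 were higher and 4 lower in untreated cells, 4 and 4 at 7 days, and 4 and 5 at 21 days. Of the 13 glutathione and antioxidant genes, Gpx4, which reduces lipid peroxides (-1.65 ± 0.36), and Gss, which makes glutathione (-1.60 ± 0.38), were lower in untreated endothelial cells. Both were also lower at 7 days (-1.04 and -1.27), with Srxn1 (-1.37), Txnrd1 (-0.64) and Gsr (-0.64), and at 21 days (-1.01 and -1.05), with Srxn1 (-1.14) and Txnrd1 (-0.39). The counts of 2, 5 and 4 of these 13 genes lay near the shares of all genes called.

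Of the 16 sestrin and mTORC1 genes, Nprl3, Rheb and Rptor were lower in untreated endothelial cells (-1.16, -0.60 and -0.87). At 7 days 6 were lower and 1 higher. At 21 days Nprl3 (-0.82), Rheb (-0.45) and the sestrins Sesn1 (-1.05) and Sesn3 (-1.39) were lower, and the arginine sensor gene Castor1 was higher (0.82). The counts of 3, 7 and 5 of these 16 genes lay near the shares of all genes called (18.3%, 40.0% and 32.0%). The 14 ER chaperone genes were called in both directions. Atf6 was the only call in untreated cells and was higher (1.43 ± 0.27), 2 were higher and 4 lower at 7 days, and at 21 days Atf6 (1.22), Xbp1 (1.13) and Calr (0.32) were higher and Hsp90b1 was lower (-0.50).

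Outside these lists, the genes whose 6 group means were most like the average of the 10, each centred on its own mean, were Urgcp, Ggnbp2, Pygo2, Tma16 and Dtymk. Their root-mean-square distances to that average over the 6 groups were 0.0235 to 0.0416 log2 units. The average profile was 0.28, 0.22 and 0.38 in untreated, 7-day and 21-day tumour cells and -0.30, -0.40 and -0.18 in the matching endothelial cells. The likeness rests on 6 values that mainly separate the cell types.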

How the data were processed

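Gene expression was measured on Affymetrix arrays, 23 in all, from sorted tumour and endothelial cells. The deposited values are log2 signals that the authors made with RMA in oligo, per the submitters' processing notes; no version is recorded there. RMA puts all arrays on one distribution, so a change shared by most genes is not seen. Of 35556 transcript clusters, 21789 name 1 gene in the platform annotation, 1621 name several and 12146 are not listed there; 21698 matched the RefSeq table by gene identifier. The cluster with the highest mean was kept for each of 19938 genes. limma 3.58.1 in R 4.3.3 fitted the 12 tumour cell arrays and the 11 endothelial arrays separately for treatment, and all 23 together for the cell types and for differences between effects. Genes with a Benjamini-Hochberg adjusted p under 0.05 over all genes were called. The code was tested on simulated data. The number of arrays limits the precision.

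The members and lists were chosen with earlier results of these data known. In each pathway list the gene with the smallest p was picked for each treatment comparison, and only some of these picks are described. Also named were every called gene of pathway lists with 5 or fewer calls, and the 5 genes most like the members' average profile. Among the list genes, Eif2s1, Pycr1, Gdf15, Aars, G6pdx, Trac and Hspa1b were not measured by a cluster of that name. Lists for fibroblasts, pericytes and T and NK cells were read too: on all 23 arrays their means were 5.82 to 7.09, 4.22 to 6.36 and 3.81 to 4.23. Epithelial markers averaged 6.27 to 6.94 in tumour cells and 5.42 to 7.42 in endothelial cells. Alternatives were other samples in the fit, filters on dim genes, prior variance, array weights, cluster choice, normalization, the replicate block, marker covariates, and each array left out; leaving out 3 endothelial arrays with a macrophage mean above 6.5 was added after seeing the data.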

Additional observations from a re-analysis of the deposited data

Results flagged for a closer look

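In groups of 4 or 5 arrays, the highest or lowest array stood apart from the rest by Dixon's criterion in 2 of the 30 pairs of a gene and a group tested, and chance flags about 1 in 20. Slc7a11 in 21-day endothelial cells was highest on replicate 1, at 3.41, with the other 4 arrays at 3.20 to 3.24; the gap was 0.834 of the range. Slc3a2 in 21-day tumour cells was lowest on replicate 4, at 9.31, with the other 4 arrays at 9.60 to 9.67; the gap was 0.826 of the range. The same array had the highest Phgdh (8.88) and the lowest Sesn2 (5.51) of the tumour cell arrays.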

How the results depend on the processing

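The 0 calls among the 10 genes in the 8 treatment comparisons and differences of effects held under every alternative run. Between the cell types, the untreated count of 5 was 2 with only the groups compared and 3 with renewed quantile normalization, and ran from 1 to 5 with each array left out; the 21-day count of 6 was 3 with renewed quantile normalization, 3 without the macrophage-high endothelial arrays and 3 to 6 with each array left out. Over all genes, the called counts for tumour cells after 7 days, after 21 days and between them were 101 (1 to 132 over the alternatives), 18 (2 to 30) and 243 (33 to 357), and the endothelial counts of 0 reached 106, 34 and 262. Centring on the median moved the 7-day cell type comparison by 0.11 and the count of 4 to 5. With the isolation stress mean as a covariate the sign turned for Psat1 (-0.54), Trib3 (-0.27) and Atf5 (-0.28) in 21-day endothelial cells, for Phgdh (0.12), Trib3 (0.07) and Slc7a5 (-0.15) in 7-day tumour cells, and for Atf3 (-0.15) in 7-day endothelial cells. Atf3 is itself part of that mean, so its adjusted value was partly fixed in advance. In these groups the mean does not overlap with that of the untreated arrays, so its part cannot be told apart from the treatment. With the macrophage mean as a covariate the sign turned for Psat1 (-0.03) and Phgdh (-0.13) between 21 and 7 days in endothelial cells, with renewed quantile normalization for Slc7a11 between the cell types at 7 and 21 days (-0.02 each), and with the mean of all clusters for Pdia4 in 21-day tumour cells (-0.26). With each array left out, Psat1 in 21-day endothelial cells ran from -0.03 (without untreated replicate 2) to 0.94, and Trib3 in 7-day tumour cells from -0.31 to 0.02 (without untreated replicate 2). The causes were not tested. Of 5581 recomputed values of 200 gene results, 5358 kept their side of the threshold and, unless within 1 SE of 0, their direction (121 values within 1 SE of 0 that were not called changed sign), 158 lost and 30 gained a call, 14 reversed and 21 moved otherwise. The labels do not state whether arrays with the same number share a tumour. Same-numbered pairs deviated together at a correlation over 0.1 in 1 of 9 across treatments in endothelial cells. The counts were 0 of 10 across treatments in tumour cells and 0 of 11 between the cell types. Low correlations between different cell types cannot exclude a shared tumour, and the main fits treat all arrays as independent. With the replicate block the cell type counts were 4, 5 and 5, and the treatment counts stayed 0.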
